A study of Mus musculus with 2 samples.

Results

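The genes described here are Arg1, Arg2, Nos2, Slc7a2, Mrc1, Chil3, Retnla, Trem2, Spp1 and Gpnmb, 10 genes of arginine use and of macrophage states, chosen by symbol from the 55450 genes of the deposited tables. They were followed in single-cell RNA sequencing of EMT6 tumors, EMT6 being a mouse mammary tumor line of triple-negative type. Mice of the BALB/c strain, female and 5 to 6 weeks old, carried subcutaneous tumors grown from 200000 cells. Both groups received the PRMT5 inhibitor LLY-283 at 50 mg/kg in cycles of 3 days of dosing and 4 days of rest, together with daily Olaparib, a PARP inhibitor, at 50 mg/kg. The Combo group received in addition an anti-PD-1 antibody, 200 µg at intervals of 3 days, so that the comparison of Combo with Olaparib + LLY-283 asks what differed with the antibody on top of both drugs. Each group was 1 library, made from tumors of 3 mice pooled. Tumors free of ulcers and necrosis had been selected, and dead and red blood cells were depleted before capture. No untreated tumor was analysed here. With 1 library per group there is no replicate check, the treatment, the pool and the library cannot be told apart, and no test was made. Intervals in brackets are 95% intervals that cover counting error only.

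Arginine is shared between competing enzymes in myeloid cells. Arginase, encoded by Arg1 in the cytosol and by Arg2 in mitochondria, splits it into ornithine and urea, whereas inducible nitric oxide synthase, encoded by Nos2, turns it into nitric oxide. Slc7a2 encodes a cationic amino acid transporter that brings arginine into the cell. High Nos2 is the textbook mark of classically activated mouse macrophages, and Arg1, the mannose receptor gene Mrc1, the chitinase-like gene Chil3 and the resistin-like gene Retnla are marks of alternative activation. Trem2, a lipid-sensing receptor, Spp1, which encodes osteopontin, and Gpnmb, a lysosome-linked glycoprotein gene, are used to name lipid-associated macrophages of tumors.

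In all, 16115 cells with 147214934 unique molecular identifiers (UMIs, each counting 1 captured transcript) were deposited for Olaparib + LLY-283, and 7542 cells with 162522700 UMIs for Combo. After removal of cells with fewer than 200 genes, with 20% or more mitochondrial UMIs, or marked as doublets, 13974 and 5672 cells were kept. The filter on genes and mitochondrial UMIs alone left out 0.534% of cells in Olaparib + LLY-283 and 21.0% of those in Combo. Myeloid cells were those with at least 0.2% of their UMIs from Tyrobp, Lyz2 and Fcer1g, genes of myeloid signaling and lysozyme. They numbered 1585 (11.3% of kept cells) in Olaparib + LLY-283 and 2008 (35.4%) in Combo, and 47 and 126 of them lay just above the limit, at under 0.25%. Their median depth was 1356 and 2375 UMIs. The background was read in tumor cells, defined by the keratin genes Krt8 and Krt18, of which there were 10322 and 2818 with medians of 8588.5 and 45571.5 UMIs. Of all barcodes, 39 occurred in both libraries, 1 of them among myeloid cells.

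The myeloid cells carried the markers of their label. All 13 macrophage markers were detected in both libraries, at a summed level of 11945 and 9871 counts per 1e+06 UMIs (CPM) in myeloid cells and of 98.1 and 121 CPM in tumor cells. The makeup of the gate differed, however. Macrophage-like cells were 63.1% of myeloid cells in Olaparib + LLY-283 (1000 cells) and 33.7% in Combo (677 cells), and their median depth was 1975 and 10780 UMIs. Neutrophil-like cells numbered 7 (0.442%) and 813 (40.5%). A further cluster with all 10 neutrophil markers held 427 (26.9%) and 408 cells (20.3%). It stayed unnamed under the rules used, since its depth was low and 0 of those markers were among its 10 leading genes. In a second, finer clustering of the cells outside the tumor clusters, a cluster of 740 cells with all 10 neutrophil markers was named neutrophil-like. Its median was 651 UMIs, so the name of shallow cells with neutrophil genes depended on the clustering. The neutrophil-like cluster of the first clustering was almost all of 1 library, and it cannot be told whether that is a type or the library. The numbers of neutrophil-like cells depend on the choices made. The class held 444 and 1230 cells with marked doublets kept and 434 and 1221 cells with the unnamed cluster added. Shares of cells are given below at a fixed depth, with each cell thinned to 1000 UMIs and shallower cells left out, which removed 614 of the Olaparib + LLY-283 myeloid cells and 108 of those in Combo. A keratin UMI was found in 29.6% and 45.5% of myeloid cells, a share that depends on depth. Per UMI, the order was the other way. Krt8 and Krt18 together were 226 and 128 CPM in myeloid cells, and 211 and 104 CPM in macrophage-like cells. The part that tumor RNA in droplets played in the levels below was not tested beyond the values given.

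The promoter sequences of Mrc1, Trem2 and Spp1 are shown because these genes were high in macrophage-like cells, and that of Retnla because it is a target gene of interleukin-4 signaling. RefSeq entries (GRCm38.p6) were found for 6 of the 10 genes, namely Mrc1, Chil3, Retnla, Trem2, Spp1 and Gpnmb. The motif searched was GAGGAA, the core bound by PU.1, on both strands, so that TTCCTC marks the opposite strand, and it occurred in 4 of these genes. The 4 genes shown are the same 4. The entries of Chil3 and Gpnmb, not shown, held neither motif searched. Spp1 had a second entry (chr5:104435942-104436191), not shown, that also held neither. Of all 32851 RefSeq promoters, 23.3% held the PU.1 core in the same 250 bases. The second motif, that of STAT6, the factor activated by interleukin-4, is TTC and GAA with 4 letters of any kind between them. It occurred in Retnla alone of the 6, beginning 145 bases before the end of the 250-base entry, and in 5.85% of all promoters. The last 58 bases of the Retnla entry lie from its annotated start onward. The motif is therefore nearer than 145 bases to that start. Both motifs were chosen after the sequences had been read, and a match is a description of letters, not a site of binding. Motifs are in capitals, and each sequence stops at the annotated start of the gene where that came first.
Mrc1, chr2:14229164-14229391, plus strand: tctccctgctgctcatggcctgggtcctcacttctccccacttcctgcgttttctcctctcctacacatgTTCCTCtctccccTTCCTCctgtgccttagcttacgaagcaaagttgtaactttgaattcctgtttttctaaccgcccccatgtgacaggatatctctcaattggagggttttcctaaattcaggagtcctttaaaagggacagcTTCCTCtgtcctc
Trem2, chr17:48346151-48346400, plus strand: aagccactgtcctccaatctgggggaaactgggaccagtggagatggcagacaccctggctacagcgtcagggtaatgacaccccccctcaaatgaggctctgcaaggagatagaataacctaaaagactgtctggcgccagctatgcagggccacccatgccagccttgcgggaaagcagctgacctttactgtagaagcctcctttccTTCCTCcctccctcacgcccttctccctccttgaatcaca
Spp1, chr5:104434861-104435110, plus strand: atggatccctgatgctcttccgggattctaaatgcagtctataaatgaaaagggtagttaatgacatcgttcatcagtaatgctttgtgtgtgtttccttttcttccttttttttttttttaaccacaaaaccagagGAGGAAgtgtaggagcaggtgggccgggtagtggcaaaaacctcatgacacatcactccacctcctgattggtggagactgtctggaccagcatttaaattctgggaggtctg
Retnla, chr16:48842359-48842550, plus strand: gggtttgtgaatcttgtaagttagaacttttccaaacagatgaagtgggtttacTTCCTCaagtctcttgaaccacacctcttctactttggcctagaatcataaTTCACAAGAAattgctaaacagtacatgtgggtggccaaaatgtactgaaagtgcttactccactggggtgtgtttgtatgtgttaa
Mrc1 held the PU.1 core at 3 positions, and the other 3 genes at 1 position each.

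Arg1, Mrc1 and Trem2 were genes of macrophage-like cells in both libraries, Arg2 was highest in the cells with neutrophil genes, and Nos2, Spp1 and Gpnmb had most of their UMIs outside the myeloid gate. Between the libraries, no gene of the 10 was 2-fold lower in Combo and only Retnla was 2-fold higher, over all myeloid cells as within macrophage-like cells, and the Retnla value rested on 1 cell. Among all 12441 genes with at least 20 UMIs in myeloid cells, 4.7% were at least 2-fold higher and 2.42% at least 2-fold lower in Combo. In macrophage-like cells, these shares were 3.13% and 2.89% of 11517 genes. The counts of 1 and 0 of 10 were close to this background. The median log2 ratio of the 10 genes was 0.06 in myeloid cells, where it was 0.01 over all genes, and 0.07 in macrophage-like cells, where it was 0.05.

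**Figure D1:**
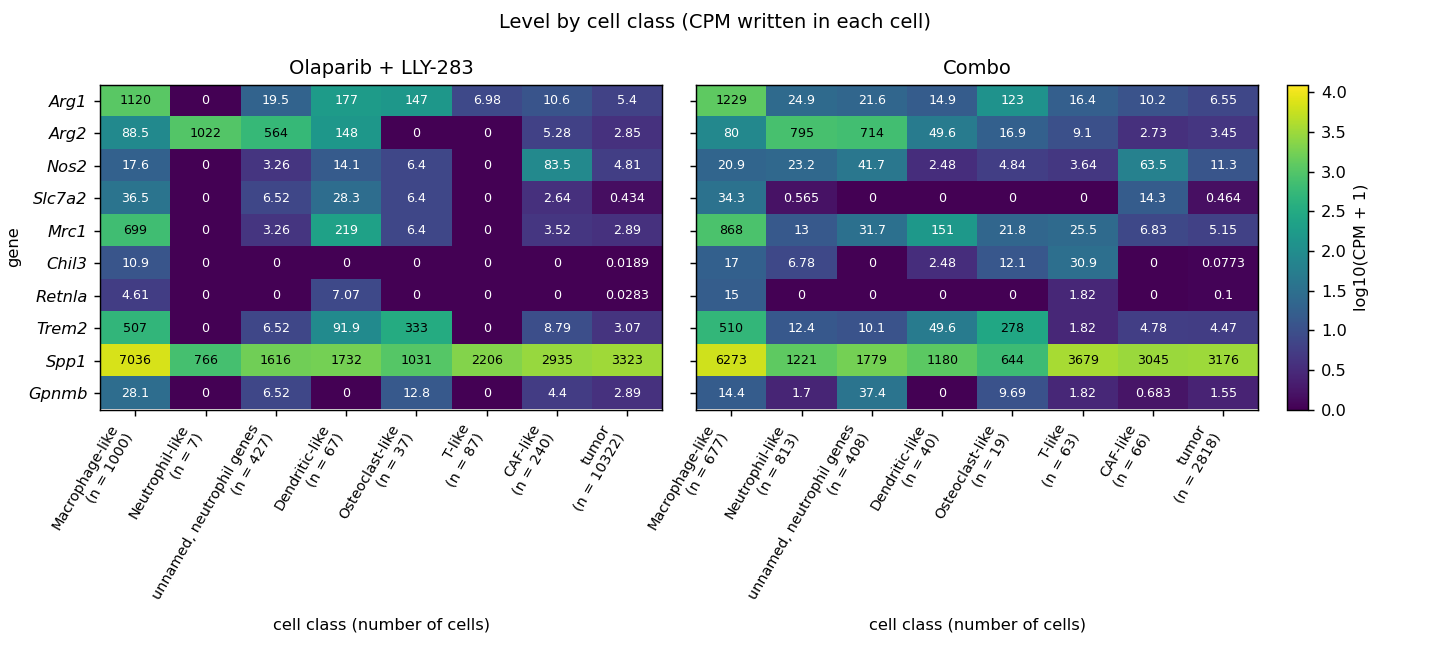
Level of each gene (rows) in 8 cell classes (columns, with cell numbers), with Olaparib + LLY-283 on the left and Combo on the right. Color is log10(CPM + 1) and the written values are CPM. Arg1, Mrc1 and Trem2 were highest in macrophage-like cells and Arg2 in cells with neutrophil genes, while Spp1 was at 644 CPM or more in every class shown.

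At equal depth, 8 of the 10 genes were found in a larger share of myeloid than of tumor cells in both libraries, with intervals apart, the exceptions being Retnla and Spp1. This count was 7 at 2000 UMIs, where Nos2 dropped out, and 6 at 500 UMIs and without thinning, where Nos2 and Gpnmb both dropped out. The share of all genes that pass the same comparison was not computed, so this count has no reference beside it. The background in tumor cells was low for most genes. It was 0.599% and 0.811% of cells for Arg1, 0.324% and 0.516% for Mrc1, and 0.344% and 0.295% for Trem2. Most UMIs of Arg1, Arg2, Slc7a2, Mrc1, Chil3, Retnla and Trem2 lay in myeloid cells in both libraries, and most of those of Nos2, Spp1 and Gpnmb in tumor cells, so that the label as genes of myeloid cells held for the first 7 by this measure. The share was lowest of the 7 for Arg2 in Olaparib + LLY-283, at 50.6%. Tumor cells were more numerous and deeper, and this measure depends on that. In CPM, Nos2, Spp1 and Gpnmb were each higher in macrophage-like than in tumor cells of both libraries.

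**Figure D2:**
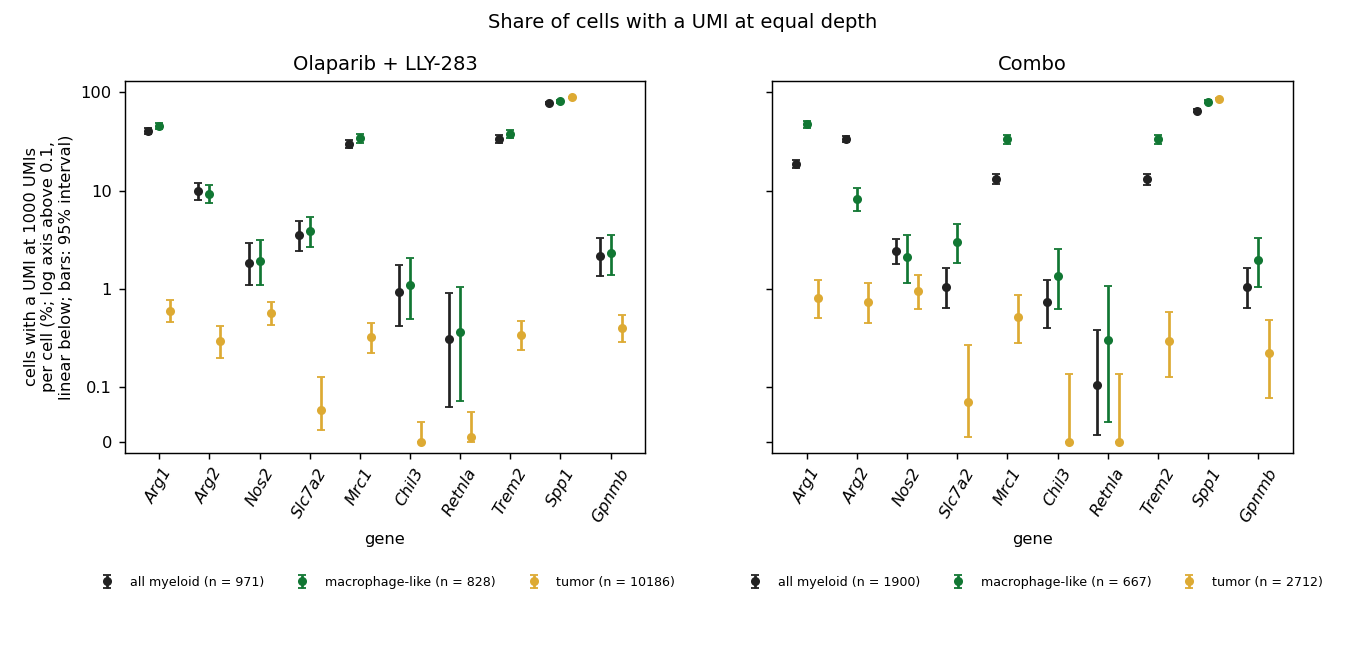
Share of cells with at least 1 UMI of each gene after thinning to 1000 UMIs per cell, in all myeloid cells, macrophage-like cells and tumor cells of each library. Bars are 95% intervals for counting error only, and the axis is logarithmic above 0.1%. The tumor cells lay far below both myeloid sets for Arg1, Arg2, Mrc1 and Trem2 and above both for Spp1.

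Arg1 (chromosome 10, 24915221 to 24927484, minus strand, mm10) was the most restricted of the arginine genes. Macrophage-like cells held 1119.5 CPM in Olaparib + LLY-283 [1077 to 1163] and 1229 CPM in Combo [1205 to 1253], a ratio of 1.10 [1.05 to 1.15]. At equal depth, 45.7% and 47.5% of these cells had an Arg1 UMI, a difference of 1.87 percentage points [-3.20 to 6.94]. The level was near the same in both libraries, and the spread between tumors behind such a ratio is unknown. Of all Arg1 UMIs in kept cells, 77.5% and 89.8% lay in macrophage-like cells. Next in order came osteoclast-like cells at 147 and 123 CPM and, in Olaparib + LLY-283, dendritic-like cells at 177 CPM [114 to 261], which did not differ from the osteoclast-like cells beyond counting error. Neutrophil-like cells of Combo held 24.9 CPM. In the whole myeloid gate, the share of cells with Arg1 at equal depth was 40.4% in Olaparib + LLY-283 and 18.6% in Combo, while the summed level was 890.4 and 868 CPM. The makeup of the gate moved with this, with macrophage-like cells at 63.1% and 33.7%, neutrophil-like cells at 0.442% and 40.5%, and the unnamed cluster of neutrophil genes at 26.9% and 20.3%. Within macrophage-like cells, no difference was detectable at this depth.

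Arg2 (chromosome 12, 79130777 to 79156301, plus strand), the mitochondrial arginase gene, had another place. Neutrophil-like cells of Combo held 795 CPM [754 to 838], and 50.9% of them had a UMI at equal depth. The unnamed cluster with neutrophil markers held 564 CPM [483 to 654] in Olaparib + LLY-283 and 714 CPM [652 to 779.6] in Combo, a ratio of 1.27 [1.06 to 1.51]. Only 30 and 348 cells of this cluster reached 1000 UMIs, and 26.7% and 46.3% of those had an Arg2 UMI. These levels were well above those of macrophage-like cells, at 88.5 CPM [77.0 to 101] and 80.0 CPM [73.9 to 86.4], where the ratio was 0.904 [0.772 to 1.06]. Over the whole gate, Arg2 was 136 CPM [123 to 149] and 225 CPM [216 to 234], a ratio of 1.66 [1.49 to 1.84], and its share at equal depth was 9.89% and 33.3%. In neither class was the ratio as large as over the gate, whose makeup moved with it. The ratio over the gate passed 2-fold with marked doublets kept, in cells without a keratin UMI and as a mean of CPM per cell. Arg2 overlaps Gm48780 and Vti1b in the annotation, so some of its UMIs may be uncertain.

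With doublets removed and the low-depth cluster unnamed, neutrophil-like cells could be compared between the libraries only in form, since 7 cells stood against 813. Of the 6 genes with at least 20 UMIs there, 4 were counted as at least 2-fold higher in Combo (Arg1, Nos2, Mrc1 and Trem2, each at 0 UMIs in the 7 cells), against 70.1% of all 6325 genes, and 0 as lower, against 15% of genes. This reads the 7 cells and not the genes. With marked doublets kept (444 and 1230 cells), the log2 ratio of Arg2 in this class was 0.48, and with the unnamed cluster added (434 and 1221 cells) it was 0.43, where the 7 cells gave -0.36. In the unnamed cluster, 3 of 6 genes were at least 2-fold higher in Combo, against 9.5% of genes, and 0 lower, against 4.65%. They were Nos2 with 1 and 29 UMIs, a ratio of 12.8 [2.12 to 523], Mrc1 with 1 and 22 UMIs, 9.72 [1.57 to 401], and Gpnmb with 2 and 26 UMIs, 5.74 [1.44 to 49.9].

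Nos2 (chromosome 11, 78920787 to 78960254, plus strand) was scarce in macrophage-like cells, at 17.6 CPM [12.7 to 23.8] in Olaparib + LLY-283 and 20.9 CPM [17.9 to 24.4] in Combo, a ratio of 1.19 [0.843 to 1.71]. At equal depth, 1.93% and 2.10% of these cells had a UMI. In the 689 of 1000 and 233 of 677 macrophage-like cells without a keratin UMI, the log2 ratio was 1.86, against 0.25 in the class. Nos2 thus passed 2-fold there, but this ratio has no interval beside it. The chance of a keratin UMI rises with depth, so the filter favors shallow cells. The whole class held 42 and 167 Nos2 UMIs. Cells like cancer-associated fibroblasts (CAF-like, 240 and 66 cells) held more, 83.5 CPM [67.6 to 102] and 63.5 CPM [51.3 to 77.8], and came first in both libraries. In Combo, they did not differ beyond counting error from the unnamed neutrophil-gene cluster at 41.7 CPM [28.0 to 59.9], and neutrophil-like cells at 23.2 CPM [16.6 to 31.4] did not differ from macrophage-like cells. Of all Nos2 UMIs, tumor cells, which were both more numerous and deeper, held 77.0% and 76.8% and myeloid cells 6.95% and 12.8%. In tumor cells, the level was 4.81 CPM [4.40 to 5.25] and 11.3 CPM [10.7 to 11.8], a ratio of 2.34 [2.11 to 2.59]. Nos2 was the 1 gene of the 8 measured there that was at least 2-fold higher in Combo, against 2.8% of all 17314 genes, and 0 were lower, against 2.18%. At equal depth, 0.569% and 0.959% of tumor cells had a Nos2 UMI, a difference of 0.389 points [0.0433 to 0.850]. Per 1000 UMIs of the macrophage markers, tumor cells held 49.0 and 93.2 Nos2 UMIs and macrophage-like cells 1.18 and 1.53, a far larger proportion in the tumor cells.

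Slc7a2 (chromosome 8, 40862396 to 40922308, plus strand), the arginine transporter gene, was a low gene of macrophage-like cells. It was 36.5 CPM [29.2 to 45.0] in Olaparib + LLY-283 and 34.3 CPM [30.4 to 38.7] in Combo, a ratio of 0.941 [0.737 to 1.21]. Without the sub-clusters mostly of 1 library, described below, the log2 ratio was -0.79, against -0.09 in the class. At equal depth, 3.86% and 3.00% of macrophage-like cells had a UMI, against 0.0589% and 0.0737% of tumor cells. Neutrophil-like cells of Combo had 1 UMI in 813 cells, or 0.565 CPM [0.0143 to 3.15]. The transporter lay with Arg1 in macrophage-like cells and was near 0 in the cells highest in Arg2. Its paralog Slc7a1 was 15.3 and 13.8 CPM in myeloid cells. Slc7a2 overlaps Gm26584.

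Mrc1 (chromosome 2, 14229392 to 14332057, plus strand), the mannose receptor gene, was 699 CPM [666 to 734] in macrophage-like cells of Olaparib + LLY-283 and 868 CPM [848 to 889] in those of Combo. The ratio was 1.24 [1.18 to 1.31], but at equal depth the shares were 33.9% and 33.4%, a difference of -0.504 points [-5.29 to 4.33]. The higher summed level was not matched by a larger share of cells with the gene. Dendritic-like cells came next, at 219 CPM [149 to 311] and 151 CPM [116 to 194]. Mir511 lies within Mrc1.

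Chil3 and Retnla, the secreted products most used to read alternative activation, were rare. Chil3 (chromosome 3, 106147554 to 106167564, minus strand) had 26 UMIs in the myeloid cells of Olaparib + LLY-283 and 171 in those of Combo. In macrophage-like cells, this was 10.9 CPM [7.12 to 16.0] and 17.0 CPM [14.3 to 20.2], a ratio of 1.56 [1.02 to 2.48], and 1.09% and 1.35% of cells had a UMI at equal depth. Its near paralog Chil4 had 0 UMIs in the myeloid cells of both libraries, and Chil1 was 8.81 and 36.5 CPM. In macrophage-like cells, Chil1 was only 0.419 and 2.01 CPM. Of its 418 UMIs in Combo myeloid cells, 307 lay in neutrophil-like cells. In Combo, the cell with the most Chil3 UMIs, 17 of 171, was a T-like cell, and it held all the Chil3 of that class.

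Retnla (chromosome 16, 48842551 to 48844461, plus strand) had 12 UMIs in the myeloid cells of Olaparib + LLY-283, or 3.92 CPM [2.02 to 6.84], and 121 in those of Combo, or 10.6 CPM [8.78 to 12.6]. The ratio was 2.70 [1.49 to 5.37], and 3.26 [1.76 to 6.71] in macrophage-like cells. Of the 121 UMIs, 110 (90.9%) came from 1 macrophage-like cell with 33237 UMIs in all, 1.41% of them mitochondrial, and 6 keratin UMIs. The other Combo myeloid cells had 11 Retnla UMIs, or 0.964 CPM [0.481 to 1.73]. Without the 5 richest cells of each library, the log2 ratio in myeloid cells turned to -0.90. Retnla was therefore not shown to be higher in Combo beyond this cell. Its paralog Retnlg, a neutrophil gene, was 209 and 213 CPM in myeloid cells, and Retnlb had 0 UMIs.

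**Figure D3:**
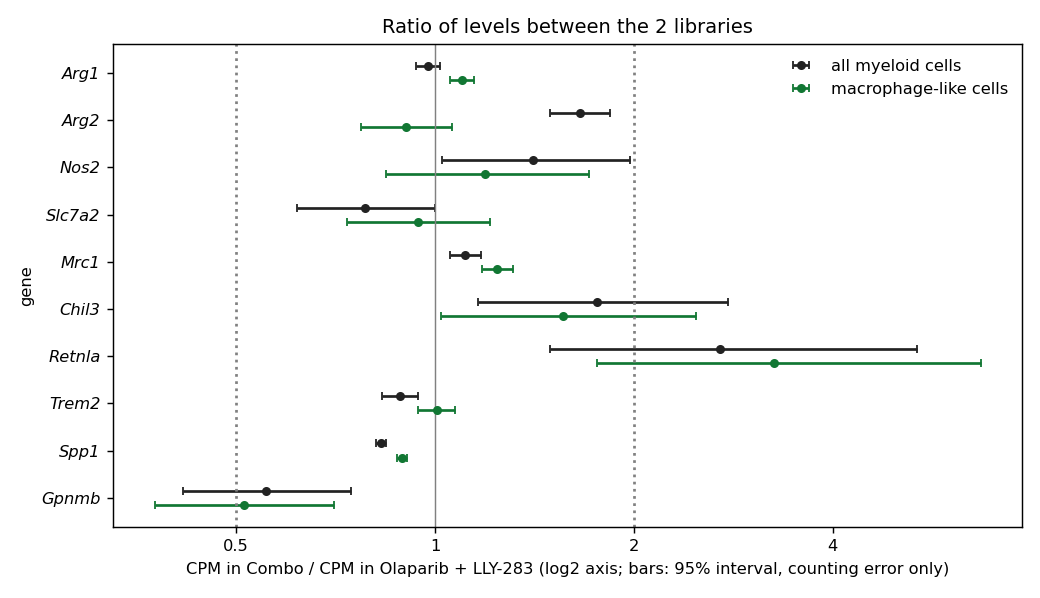
Ratio of the level in Combo to that in Olaparib + LLY-283 for each gene, on a log2 axis, in all myeloid cells (black) and in macrophage-like cells (green), with 95% intervals for counting error only. Dotted lines mark 2-fold. Most points lay between the lines, Retnla lay beyond the upper line, and Arg2 was above 1 over the gate but not in macrophage-like cells.

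Trem2 (chromosome 17, 48346401 to 48354147, plus strand) had nearly the same level in macrophage-like cells of both libraries, 507 CPM [479 to 536] and 509.8 CPM [494 to 526], a ratio of 1.01 [0.943 to 1.07]. At equal depth, 37.9% and 33.1% of cells had a UMI, a difference of -4.79 points [-9.61 to 0.0999]. Osteoclast-like cells came second with 333 CPM [249 to 437] and 278 CPM [229.9 to 334], and at equal depth, over 32 and 19 cells, the intervals of their shares overlapped those of macrophage-like cells. In tumor cells, Trem2 stood in much the same ratio to macrophage markers as in macrophage-like cells, 31.3 against 33.9 UMIs per 1000 marker UMIs in Olaparib + LLY-283 and 37.0 against 37.2 in Combo. This was not so for every gene. Arg1 was lower in tumor cells by this measure, 55.1 against 74.9 and 54.2 against 89.6. Mrc1 was also lower, 29.4 against 46.8 and 42.6 against 63.3. Arg2 was higher in tumor cells, 29.0 against 5.92 and 28.6 against 5.83.

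Spp1 (chromosome 5, 104435118 to 104441050, plus strand), the osteopontin gene, was not a gene of macrophages alone. Tumor cells held 3323 CPM [3312 to 3334] and 3176 CPM [3166 to 3185], and 86.6% and 82.4% of all Spp1 UMIs. Macrophage-like cells held 7036 CPM [6930.3 to 7144] and 6273 CPM [6218 to 6328], a ratio of 0.891 [0.876 to 0.907]. At equal depth, a UMI was found in 81.2% and 80.2% of macrophage-like cells and in 88.7% and 86.1% of tumor cells, so that the share and the summed level put both types in opposite order. T-like cells also had Spp1, 2206 CPM and 3679 CPM, with a UMI at equal depth in 67.6% and 49.2% of them. Of the 87 and 63 T-like cells, 20 and 15 passed the myeloid gate, and 24% of the cluster met the tumor rule. The class thus overlapped the myeloid and tumor sets. Per keratin UMI, there were 33.3 and 60.6 Spp1 UMIs in macrophage-like cells, 4.79 and 15.7 in T-like cells, and 3.44 and 3.49 in tumor cells. The keratin level itself was 211 and 104 CPM in macrophage-like cells, 461 and 235 CPM in T-like cells, and 966 and 911 CPM in tumor cells. A UMI of this gene was found in 45.5% or more of the cells in every class with over 20 cells at this depth, so that no cell was called Spp1-positive from it. Spp1 overlaps Gm42793.

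Gpnmb (chromosome 6, 49036546 to 49070929, plus strand) was the member nearest to 2-fold lower in Combo. In macrophage-like cells, it was 28.1 CPM [21.8 to 35.7] in Olaparib + LLY-283 and 14.4 CPM [11.9 to 17.3] in Combo, a ratio of 0.513 [0.376 to 0.704]. At equal depth, 2.29% and 1.95% of cells had a UMI, a difference of -0.346 points [-1.84 to 1.24], so that the share showed no such gap. In tumor cells, the ratio was 0.535 [0.446 to 0.642], from 2.89 CPM and 1.55 CPM. Tumor cells held 75.9% and 53.1% of Gpnmb UMIs, and the summed level was thus lower in Combo in both kinds of cell. Among the macrophage-like sub-clusters described below, the ratio was 0.262 [0.168 to 0.420] in sub-cluster 2. In sub-clusters 1 and 4, it was 0.822 [0.277 to 2.03] and 0.802 [0.401 to 1.72]. Of the 31 Combo UMIs of sub-cluster 4, 29 came from 1 cell, so its ratio rested on that cell. Sub-clusters 3 and 5 held 2 UMIs or fewer in each library. The unnamed cluster with neutrophil markers went the other way, at 5.74 [1.44 to 49.9]. In Combo, that cell of sub-cluster 4 held 29 of the 149 Gpnmb UMIs of all myeloid cells. Without the 5 richest cells of each library, the gene passed 2-fold lower in macrophage-like and in all myeloid cells.

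Within the macrophage-like class, the genes marked different cells. A finer clustering of all cells outside the tumor clusters, from which the 10 genes had been left out, gave 5 sub-clusters of macrophage-like cells, named here by number. Sub-cluster 1 (484 cells in Olaparib + LLY-283 and 37 in Combo) was led by Il7r, Lyz2 and Fam20c, and sub-cluster 2 (100 and 270 cells) by Pf4, F10 and Rgs1. Sub-cluster 3 (157 and 161) was led by the chemokine gene Ccl12 with Ms4a7 and Fcrls, sub-cluster 4 (163 and 113) by Ednrb, Ccl8 and Selenop, and sub-cluster 5 (90 and 85) by MHC class II genes. The finer cluster behind sub-cluster 5 carried 3 dendritic markers among its 10 leading genes and was named dendritic-like there, so that its cells were named differently by the 2 clusterings. Without it, the class held 910 and 592 cells, and Retnla was again the 1 gene past 2-fold. The finer clusters behind sub-clusters 1 and 4 stayed unnamed in the finer clustering. Both had all 13 macrophage markers over 2-fold but 0 of them among the 10 leading genes. Sub-clusters 1 and 2 were each mostly of 1 library, so that their levels between libraries carry the least weight.

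Arg1 was highest in sub-clusters 1 and 2. It was 1645 CPM [1559 to 1733] and 1227 CPM [1088 to 1379] in sub-cluster 1 and 1586 CPM [1436 to 1747] and 2161 CPM [2105 to 2218] in sub-cluster 2. In sub-cluster 3, it was 429.9 CPM [374 to 492] and 573 CPM [543 to 604], the lowest beside sub-cluster 5 at 520.2 CPM [427 to 628] and 612 CPM [561 to 667]. The intervals of these last pairs overlapped within each library. Mrc1 followed another order and was highest in sub-cluster 4, at 1651 CPM [1547 to 1760.3] in Olaparib + LLY-283 and 2326 CPM [2256 to 2397] in Combo. The ratio there was 1.41 [1.31 to 1.51], and the share at equal depth was 67.1% and 83.9%, a difference of 16.8 points [6.28 to 26.5]. Among the other sub-clusters, Mrc1 was 339 to 503 CPM, with the exception of sub-cluster 1 in Combo, where 37 cells gave 56.8 CPM [30.2 to 97.1]. Sub-cluster 4 had the highest Mrc1 ratio of the 5, but the difference from the other sub-clusters was not tested.

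Spp1 was highest in sub-cluster 3, at 12195 CPM [11888 to 12508] in Olaparib + LLY-283 and 9062 CPM [8942 to 9184] in Combo, a ratio of 0.743 [0.722 to 0.765]. It was lowest in the Mrc1-rich sub-cluster 4, at 2364 CPM [2239 to 2494] and 2511 CPM [2439 to 2585]. The sub-cluster richest in Mrc1 was thus the poorest in Spp1. Trem2 varied less, from 371 to 612 CPM in Olaparib + LLY-283 and from 361 to 616 CPM in Combo, with sub-cluster 4 highest in both. Slc7a2 was 15.4 CPM [4.21 to 39.5] and 66.4 CPM [57.0 to 77.0] in sub-cluster 2, from 4 and 176 UMIs, a ratio of 4.30 [1.65 to 16.0]. In sub-cluster 4, it went the other way, from 28.3 CPM [16.2 to 46.0] to 4.40 CPM [1.90 to 8.66], a ratio of 0.155 [0.0575 to 0.384]. These opposite ratios stood beside a ratio near 1 in the class as a whole. Retnla was found in sub-cluster 4, with 11 and 119 UMIs, and elsewhere in the class as a single UMI in sub-cluster 2 of Combo.

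In each sub-cluster, no more than 2 of the measured genes were past 2-fold in 1 direction. Of 8 measured genes in sub-cluster 1, Nos2 (23 and 14 UMIs, ratio 2.25 [1.07 to 4.56]) was higher in Combo, against 1.93% of all genes, and Mrc1 was lower, against 14.2%. Of 9 in sub-cluster 2, Slc7a2 and Nos2 (5 and 105 UMIs, ratio 2.05 [0.853 to 6.46]) were higher, against 11.8%, and Gpnmb (28 and 75 UMIs, ratio 0.262 [0.168 to 0.420]) was lower, against 4.01%. Of 6 in sub-cluster 3, 0 were past 2-fold, against 5.82% higher and 2.37% lower. It was the 1 sub-cluster where no measured gene passed 2-fold. Of 8 in sub-cluster 4, Retnla was higher, against 6.67%, and Slc7a2 lower, against 4.99%. Of 8 in sub-cluster 5, Nos2 with 0 and 35 UMIs was higher, against 9.66%, and 0 were lower, against 2.61%. Nos2 passed 2-fold in the 3 sub-clusters where it had at least 20 UMIs. In sub-cluster 2, 1 Combo cell held 24 of the 105 Nos2 UMIs and 26 of the 176 Slc7a2 UMIs. Ratios without this cell were not computed. In sub-clusters 3 and 4, with fewer UMIs, Nos2 lay on the other side. It had 10 and 6 UMIs in sub-cluster 4, a ratio of 0.186 [0.0557 to 0.566], and 1 cell held 6 of those 10. In sub-cluster 3, it had 4 and 7 UMIs, a ratio of 0.362 [0.0920 to 1.69]. Over the class its interval included 1.

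**Figure D4:**
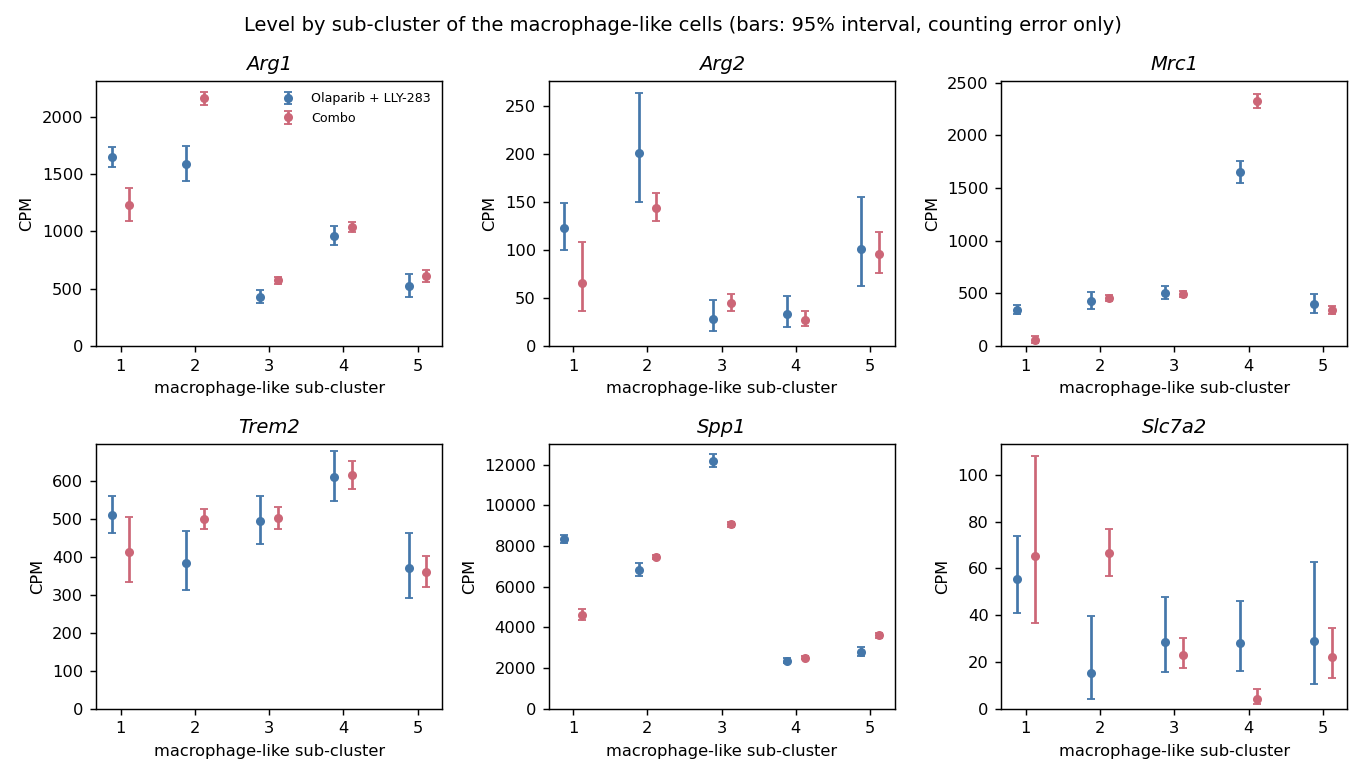
Level (CPM, linear axis from 0) of Arg1, Arg2, Mrc1, Trem2, Spp1 and Slc7a2 in the 5 sub-clusters of macrophage-like cells, for Olaparib + LLY-283 (blue) and Combo (red), with 95% intervals for counting error only. Mrc1 stood highest in sub-cluster 4, Spp1 in sub-cluster 3 and Arg1 in sub-clusters 1 and 2.

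Co-detection was read in macrophage-like cells at 1000 UMIs, as the number of cells with both genes beside the product of their shares. Of the 45 pairs, 2 were below the product in both libraries with intervals apart from 0, and 0 were above it in both. Over the whole myeloid gate, 1 pair was below and 3 were above in both libraries. The share over pairs of all genes was not computed, so these counts have no reference beside them. Cells here are not replicates, and these pairs are a description of each library. The first of the 2 pairs in macrophage-like cells was Arg2 and Mrc1. In Olaparib + LLY-283, 16 cells had both where the product gave 26.1, and Mrc1 differed by -14.5 points [-22.8 to -3.64] among Arg2 cells from the others. In Combo, 10 cells had both where the product gave 18.4, a difference of -16.6 points [-25.5 to -3.93]. The second pair was Mrc1 and Spp1, with differences of -7.57 points [-13.6 to -1.89] and -7.99 points [-14.9 to -1.53]. Sub-cluster 4, the richest in Mrc1, was the poorest in Spp1 in both libraries.

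Arg1 and Nos2, which compete for arginine, were not found apart from each other. In Olaparib + LLY-283, 15 of the 16 macrophage-like cells with a Nos2 UMI had an Arg1 UMI, where the product gave 7.30. In Combo, it was 8 of 14, where the product gave 6.65, and the share of Nos2 cells was 0.809 points [-1.52 to 3.36] higher among Arg1 cells. Mrc1 was found in 0 of the 14 Nos2 cells of Combo, where the product gave 4.68, and in 7 of the 16 of Olaparib + LLY-283, where it gave 5.43. With 16 and 14 cells these numbers are small.

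Arg1 and Spp1 were read both over the whole gate and in macrophage-like cells, and the part of the class makeup was not tested. Over the whole myeloid gate, Spp1 was more frequent among Arg1 cells by 1.62 points [-3.77 to 6.82] in Olaparib + LLY-283 and by 15.2 points [10.0 to 20.0] in Combo. Within macrophage-like cells, the differences were -3.30 and -1.36 points [-7.46 to 4.67 in Combo]. The excess in the Combo gate was thus not seen in macrophage-like cells alone. Arg1 and Arg2 were found together in 51 myeloid cells of Combo where the product gave 117.6, and in 33 macrophage-like cells of Combo where it gave 26.1, a difference of 4.12 points [-0.0832 to 8.51] in the share of Arg2. In Olaparib + LLY-283, they were together in 50 myeloid cells where the product gave 38.8 and in 47 macrophage-like cells where it gave 35.2.

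Other genes of arginine use, of both activation states and of lipid-associated macrophages were read as lists. Of 24 measured genes of arginine use in macrophage-like cells, 1 was at least 2-fold higher in Combo, Prodh with 3 and 27 UMIs, and 1 at least 2-fold lower, Ddah1 with 9 and 12 UMIs, with a median log2 ratio of -0.01. Of 20 measured genes of alternative activation, 1 was higher and 1 lower, with a median of 0.07. Lyve1, a hyaluronan receptor gene of perivascular macrophages, was 131 and 341 CPM, a ratio of 2.60 [2.31 to 2.93]. Cd209f, a C-type lectin gene, had 33 and 8 UMIs, a ratio of 0.0724 [0.0289 to 0.160]. Of 20 classical genes, 0 were past 2-fold in either direction, and the median was 0.18. Over the whole gate, 2 of 20 classical genes were at least 2-fold higher, Il1b (ratio 2.23) and Acod1 (2.60), which makes itaconate, and 0 lower. There, 2 of 24 alternative genes were higher and 1 lower, and 1 of 25 arginine genes was past 2-fold in each direction. Of 20 lipid-associated genes, 0 were higher and 3 lower. Among all genes, 4.7% were higher and 2.42% lower. The makeup of the gate moved with these counts, and its part was not tested.

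The lipid-associated list had the lowest median, -0.32 in macrophage-like cells, with 0 of 20 genes higher and 4 lower, where 2.89% of all genes were lower. Fabp5, which encodes a fatty acid binding protein, was 767 CPM in Olaparib + LLY-283 and 259 CPM in Combo, a ratio of 0.338 [0.317 to 0.360]. Hmox1, which encodes heme oxygenase, was 1454 and 587 CPM, a ratio of 0.403 [0.386 to 0.422]. Fabp4 (63 and 53 UMIs) had a ratio of 0.251 [0.171 to 0.368], and Lpl, the lipoprotein lipase gene, had 0.499 [0.371 to 0.677]. Of the 3 members used to name such macrophages, Gpnmb had a ratio of 0.513 on the same side, and Trem2 and Spp1 had 1.01 and 0.891. In sub-clusters 1 to 5, the lipid-associated list had 20, 20, 19, 18 and 19 measured genes. Of these, 0, 2, 1, 0 and 1 were higher and 2, 3, 1, 4 and 5 lower. Among all genes there, 1.93%, 11.8%, 5.82%, 6.67% and 9.66% were higher and 14.2%, 4.01%, 2.37%, 4.99% and 2.61% lower. In tumor cells, 0 of 20 were higher and 2 lower, against 2.8% and 2.18% of all genes.

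**Figure D5:**
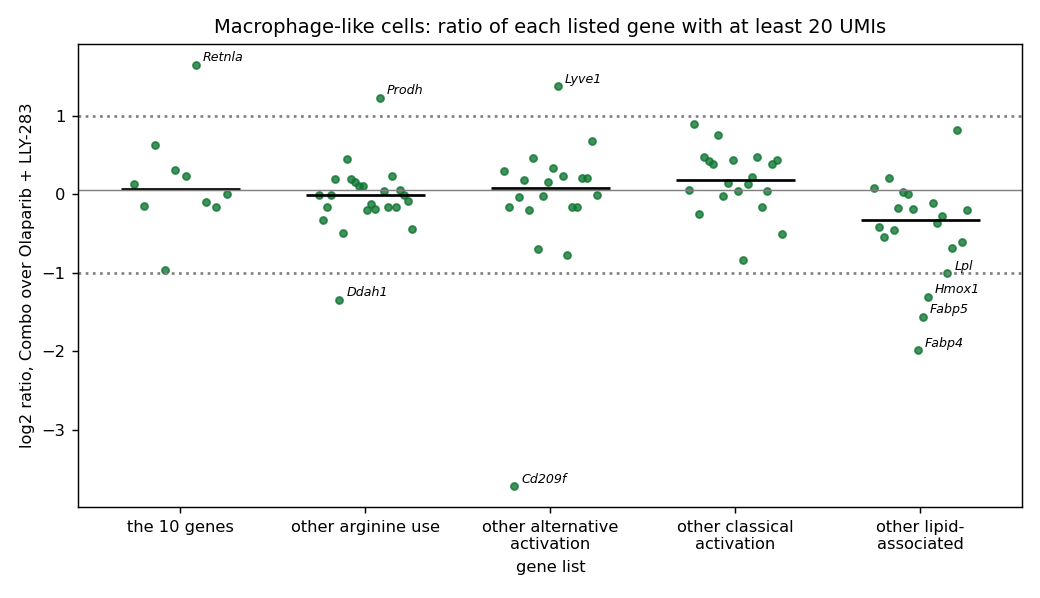
Log2 ratio of the level in Combo over that in Olaparib + LLY-283 in macrophage-like cells, 1 point per gene with at least 20 UMIs, for the 10 genes and 4 lists. Black bars are list medians, the gray line is the median of all genes and dotted lines mark 2-fold. The lipid-associated list lay lowest, with 4 genes under the lower line.

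The genes most like each member were sought by Pearson correlation of log2(CPM + 1) over 19 clusters outside the tumor cells, among 8687 genes. These are descriptions over points that share 2 libraries and their depth. Arg1 was most like Apoe (0.965), Msr1 (0.952) and Tbxas1 (0.944), and Mrc1 most like C1qc (0.977), F13a1 (0.975) and Ccl12 (0.952). Trem2 was most like Dab2 (0.938), Gpx1 (0.933) and Apoe (0.930). Apoe and C1qc are genes of tissue macrophages. Arg2 was most like Mcemp1 (0.967), Il1rn (0.965) and Ccrl2 (0.961), and Slc7a2 most like Cebpa (0.836), Cmklr1 (0.827) and Selenbp1 (0.823). Nos2 was most like Cped1 (0.815), Saa3 (0.80) and P4hb (0.775). Retnla was most like Cd163 (0.762), Npl (0.759) and Lyve1 (0.745), but 110 of its 134 UMIs there came from 1 Combo cell of sub-cluster 4. Chil3 was most like Helb (0.798), Pycard (0.786) and Ptpn22 (0.775). Spp1 was most like Bhlhe41 (0.878), Zfp90 (0.802) and Slc7a2 (0.786). Gpnmb, whose highest value was the lowest of the 10, was most like Vapa (0.741), Hmox1 (0.734) and Tpi1 (0.729).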

How the data were processed

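The authors deposited raw UMI counts, as 1 sparse matrix of genes by cells for each library. The submitters' processing notes name the build mm10, bcl2fastq 5.0.1, Cell Ranger and Seurat 4.1.0. Both libraries hold more barcodes than the minimum number of cells the study states for library preparation. The matrix header names Cell Ranger 6.1.2, whereas the study's methods give a later version. All 55450 gene identifiers were in GENCODE M21, the source of positions. Members and lists were chosen with earlier results of these data known.

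Cells were required to show 200 genes or more and less than 20% of UMIs from mitochondrial genes. Scrublet, as run by scanpy 1.11.5, called 0 cells as doublets at its automatic threshold in both libraries, so the highest scores were marked up to 0.8% per 1000 cells (2055 and 284 cells) and removed. After scaling each cell to 10000 and taking logs, 2000 variable genes without the members and list genes, 30 principal components and 20 neighbors were used for Leiden clustering (leidenalg 0.10.2, igraph 0.11.9) at resolution 1.3. The cells outside tumor clusters were clustered again in the same way, which gave the sub-clusters of macrophage-like cells, and those with at least 20 cells in either library were used. A cluster was named for the marker list with the highest mean log2 fold if at least 3 markers were over 2-fold. It stayed unnamed when another class had more markers among its 10 leading genes, or when its median depth was under 1 part in 3 of its library's and no own marker led it. These naming rules and the keratin rule were chosen after seeing the data. Tumor cells had at least 0.02% of UMIs from Krt8 and Krt18 and under 0.1% from the myeloid genes.

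UMIs were summed per library and class and given as CPM with exact Poisson intervals, shares with Clopper-Pearson intervals, ratios with exact conditional binomial intervals and differences of shares with Newcombe intervals, all at 95% and for counting error only. Shares were computed with each cell thinned once to 1000 UMIs. A gene was measured with at least 20 UMIs over both libraries, and 0.5 UMIs were added in medians of log2 ratios. With 1 library per group no test was made. The text names all members, their near paralogs and the 3 most similar genes of each by correlation. List genes past 2-fold are named for macrophage-like cells, and over the whole gate for the classical list only. Scripts ran in Python 3.11.15 with scipy 1.17.1, numpy 2.4.6, scikit-learn 1.9.0 and pandas 2.3.3, and plots were drawn with matplotlib 3.10.9. The procedure was checked on simulated data. Alternatives changed the mitochondrial limit, the doublets, the gate, the keratin filter, the weight of deep cells, the richest cells, the resolution, the thinning depth and the tumor rule.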

Additional observations from a re-analysis of the deposited data

How the results depend on the processing

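With 1 library per group, 0 replicates could be left out. No paired analysis was possible because each group has 1 library. Over all myeloid cells, the number of the 10 genes at least 2-fold higher in Combo was 1, and it was 3 with marked doublets kept (Arg2, Chil3 and Retnla), 2 in cells without a keratin UMI and 2 as a mean of CPM per cell (Arg2 and Nos2 in both). The number lower was 0, and it was 1 with the gate at 0.5%, without keratin cells and without the 5 richest cells (Gpnmb in each), and 1 as a mean per cell (Slc7a2). In macrophage-like cells, the number higher was 1, and it was 0 under 10% mitochondrial UMIs, 0 with doublets kept and 2 as a mean per cell (Chil3 and Retnla). The number stayed 1 for another gene without keratin cells (Nos2, log2 ratio 1.86) and without the 5 richest cells (Chil3, which was also the 1 gene over all myeloid cells in that setting). The number lower was 0, and it was 1 (Gpnmb) with the gate at 0.5%, without keratin cells and without the 5 richest cells. In neutrophil-like cells, 4 became 2 with doublets kept, and 2 with the unnamed neutrophil-gene cluster added (Nos2 and Mrc1 in both). The alternatives on sub-clusters and on the unnamed cluster were chosen after seeing the data. Shares of all genes past 2-fold were computed with the main settings only, so the counts under alternatives have no such share beside them.

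The log2 ratio of Retnla changed sign in myeloid cells without keratin (-1.07) and without the 5 richest cells (-0.90), and in macrophage-like cells under 10% mitochondrial UMIs (-0.92) and without keratin (-0.67). The 1 Retnla-rich cell has keratin UMIs and falls outside the macrophage-like class at 10%, so these settings leave it out. With doublets kept it also falls outside that class. Signs of other genes also changed in some settings. With doublets kept, the log2 ratios of Arg1, Slc7a2 and Trem2 in myeloid cells were 0.31, 0.07 and 0.24. The main values were -0.04, -0.35 and -0.18. That of Mrc1 was -0.41 in myeloid cells without keratin, against 0.15. The Arg1 and Spp1 difference moved from 1.62 to 10.6 points at 500 UMIs and 15.7 without thinning in Olaparib + LLY-283. In Combo, it moved from 15.2 to 25.5 at 500 UMIs and 9.62 at 2000 UMIs, and turned to -1.36 in macrophage-like cells only. Of the single-gene ratios under an alternative, 90 in macrophage-like and 50 in myeloid cells stayed within the interval of the value given, and 16 and 28 moved out of it. As a mean per cell over all myeloid cells, the log2 ratio was -0.72 for Arg1, -0.66 for Mrc1 and -0.95 for Trem2, against -0.04, 0.15 and -0.18 from summed UMIs. Retnla and Chil3 had the fewest UMIs in the myeloid cells of Olaparib + LLY-283, 12 and 26.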
